A study of Homo sapiens with 4 samples.

Results

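The transcripts of 10 transcription factors that set epithelial fate were followed in MCF10A cells, a non-tumorigenic line of human mammary epithelium, across arrays of cells with an empty vector or a form of YAP. A factor was taken through every probe set annotated to its symbol and no other, and its brightest probe set, that with the highest mean intensity over the 4 arrays, stood for it. By this rule 9 of the 10 factors were found, with 23 of the 41091 probe sets that carry 1 symbol. They are EHF, ELF3, ELF5, GRHL1, GRHL3, KLF4, KLF5, GATA3 and SOX9. The 10th factor had no probe set under the rule and was not analysed here.

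All cells had been infected with retrovirus and grew in the same medium with horse serum, EGF, hydrocortisone, insulin and cholera toxin. The vector group carried empty pQCXIH. The YAP-WT group carried wild-type YAP in that vector, the YAP-S94A group a form with a changed residue in the part that binds TEAD factors, and the YAP-W1W2 group a form with both WW domains mutated. Each group was 1 array of 1 culture, so no difference below could be checked on a replicate, and none has an error or a p-value.

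YAP is the coactivator that the Hippo pathway restrains. It has no DNA-binding domain of its own and reaches many of its targets through TEAD proteins, while its WW domains bind partners with PPxY motifs. The factors described here belong to 5 families. EHF, ELF3 and ELF5 are ETS factors found mainly in epithelia, GRHL1 and GRHL3 are grainyhead factors of barrier formation, KLF4 and KLF5 are zinc finger factors of differentiating and proliferating epithelium, GATA3 maintains luminal cells of the breast, and SOX9 is a factor of progenitor cells.

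Differences are given as log2 differences of intensity or as folds. A floor was put at 72.9, the 40th percentile of all intensities, and lower readings were raised to it. A fold with 1 array at the floor is a lower bound, written as at least that fold. A change means a difference of at least 2-fold. Of the 9 factors, 8 had a mean intensity of at least 113.6 and are called measured. ELF5 did not.

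Of the 9 factors, 3 were at least 2-fold lower and 1 was higher with YAP-WT than in vector, beside 4.95% lower and 9.11% higher among all 12759 measured genes. In YAP-S94A 1 factor was lower and 0 were higher, beside 6.53% and 10.3% of measured genes. In YAP-W1W2 5 were lower and 0 higher, beside 8.4% and 11.4%. Over the 9 factors the median log2 difference from vector was −0.79 with wild-type YAP, −0.17 with YAP-S94A and −1.05 with YAP-W1W2. The median of all measured genes was 0.14, 0.14 and 0.1. Unlike those genes, the 9 include ELF5, which was not measured and which the floor held at −0.04 in each comparison. These 3 comparisons share the vector array, and the factors were chosen with earlier results of these data known. EHF was lower in every YAP array, and GATA3 was higher with YAP-WT. By their brightest probe sets ELF3 and SOX9 were lower with YAP-WT and YAP-W1W2 and not in YAP-S94A. There, 1 other ELF3 probe set was 2.1-fold lower than vector.

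**Figure D1:**
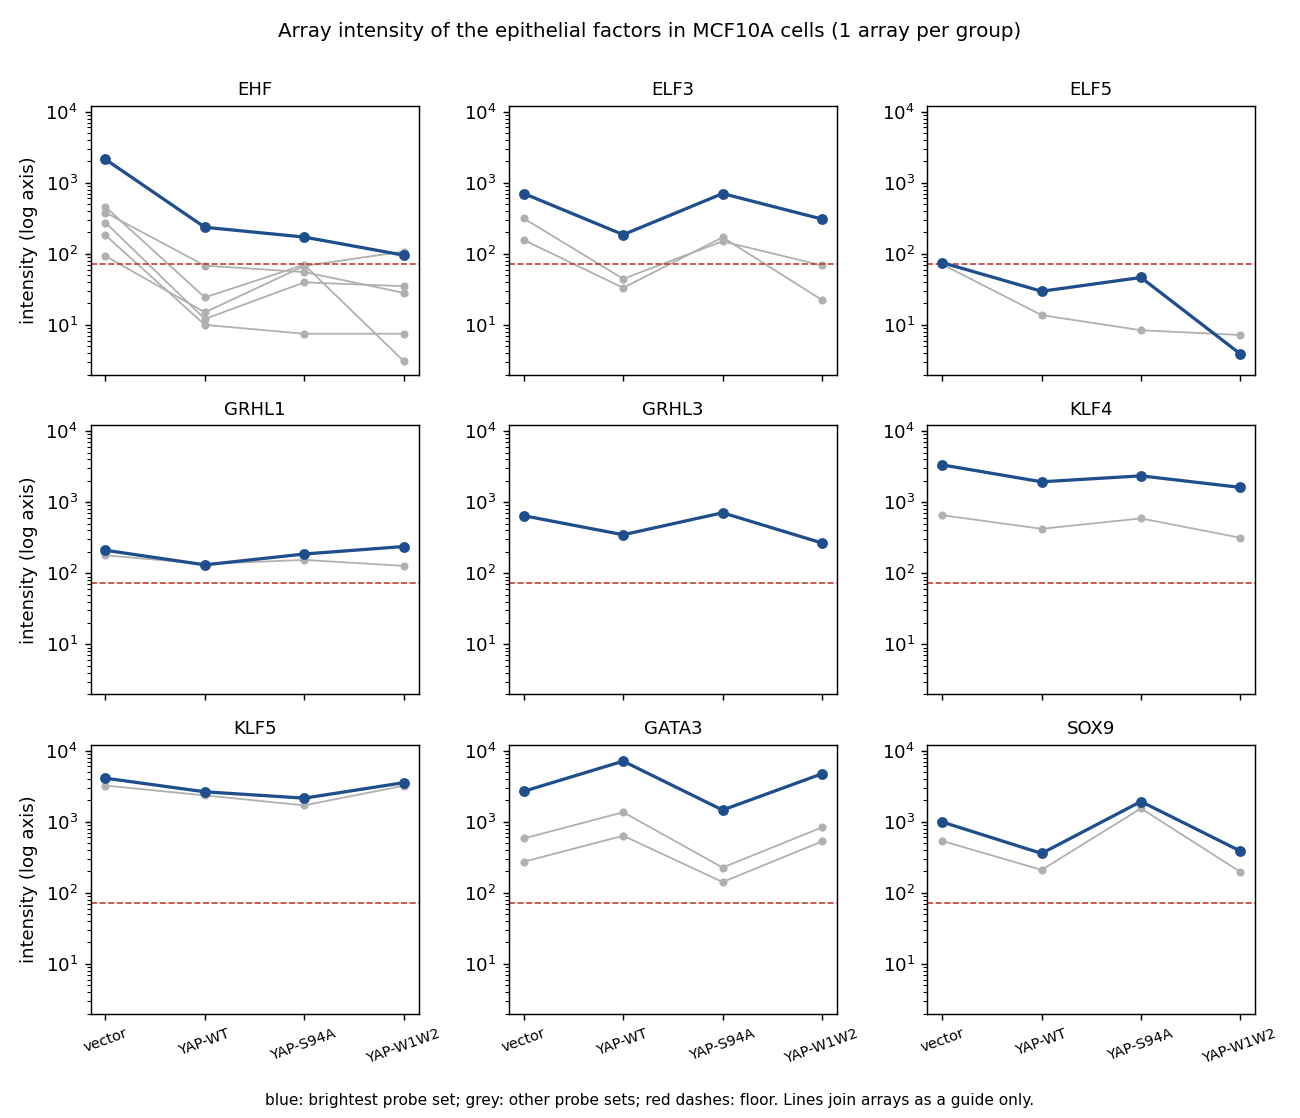
Array intensity of the 9 factors (vertical log axis) in the 4 arrays (horizontal axis), with 1 panel per gene, the brightest probe set in blue, other probe sets in grey and the floor of 72.9 as a dashed red line. EHF stands at 2128.4 in vector and at 235.9 or less in the YAP arrays, SOX9 peaks at 1923.2 with YAP-S94A, and GATA3 peaks at 7108.3 with YAP-WT.

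The sequence before the annotated start is shown for EHF, which differed most from vector. It is also shown for GATA3, whose level was highest with YAP-WT and lowest with YAP-S94A. ELF3 and GRHL3 are shown from among the factors at least 2-fold lower than vector in YAP-W1W2. KLF4 was lower there too, and its window, with no match, is not shown. The GATA3, ELF3 and GRHL3 windows shown are those that hold a marked motif. The windows of other GATA3 and GRHL3 starts lack that motif. Each run is the 250 bases upstream of a RefSeq start in assembly GRCh38.p14, on the plus strand. Capitals mark matches on either strand to GGAATG, the core that TEAD factors bind (read as CATTCC on the other strand), or to CACCTG, an E-box core. The lines give EHF at chr11:34624007-34624256, GATA3 at chr10:8045083-8045332, ELF3 at chr1:202010337-202010586 and GRHL3 at chr1:24319107-24319356.
EHF: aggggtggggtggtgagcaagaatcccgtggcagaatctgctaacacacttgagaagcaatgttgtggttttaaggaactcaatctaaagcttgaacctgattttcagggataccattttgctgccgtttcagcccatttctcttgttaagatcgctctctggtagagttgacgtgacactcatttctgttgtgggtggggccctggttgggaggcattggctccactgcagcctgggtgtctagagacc
GATA3: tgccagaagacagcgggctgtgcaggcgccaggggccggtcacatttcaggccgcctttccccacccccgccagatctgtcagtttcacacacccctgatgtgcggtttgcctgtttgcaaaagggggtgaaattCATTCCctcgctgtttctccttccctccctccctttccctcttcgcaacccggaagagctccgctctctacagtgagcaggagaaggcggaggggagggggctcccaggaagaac
ELF3: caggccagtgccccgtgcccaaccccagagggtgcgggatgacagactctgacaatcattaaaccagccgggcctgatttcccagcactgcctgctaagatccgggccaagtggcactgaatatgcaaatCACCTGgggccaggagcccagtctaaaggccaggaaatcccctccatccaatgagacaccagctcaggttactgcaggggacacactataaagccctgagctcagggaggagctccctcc
GRHL3: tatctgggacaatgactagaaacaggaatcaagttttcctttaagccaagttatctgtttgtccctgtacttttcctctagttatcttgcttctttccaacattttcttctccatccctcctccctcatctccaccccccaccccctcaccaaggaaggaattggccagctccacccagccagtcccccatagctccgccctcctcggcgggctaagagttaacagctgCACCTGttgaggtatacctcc

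Of the 35116 upstream windows of this length in the RefSeq table, 11.9% held GGAATG, 17.5% CACCTG, 6.57% the AP-1 core TGANTCA and 1.49% the grainyhead core AACCNGTT. The table holds 16 windows for 8 of the factors and has no entry for SOX9. Among these 16, GGAATG was found in 1, the GATA3 window above. CACCTG was found in 2, those of ELF3 and GRHL3. TGANTCA was found in 1, before another GATA3 start, and AACCNGTT in 0. No motif overlapped another. Neither of the 2 EHF windows held any of the 4 motifs. A match describes letters only, and the arrays do not measure binding.

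The ETS factors were led by EHF, an activator of epithelial genes. Its brightest probe set read 2128.4 in vector, 235.9 with wild-type YAP, 171.9 with YAP-S94A and 95.6 with YAP-W1W2. The vector array stood apart and the 3 YAP arrays followed with gaps of under 2-fold between neighbours. EHF was 9.02-fold lower than vector in YAP-WT, 12.4-fold lower with YAP-S94A and 22.3-fold lower with YAP-W1W2. These sizes rest on 1 probe set that came near the floor. With the mean of all probe sets the log2 differences were −1.97, −2.04 and −2.09. With the floor at the 60th percentile YAP-S94A and YAP-W1W2 were level, at −3.55. Among the 12759 measured genes, 8 had a lower log2 difference than EHF with wild-type YAP, 12 with YAP-S94A and 10 with YAP-W1W2.

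Of the 6 EHF probe sets, 5 were at least 2-fold lower than vector in each YAP array. The second probe set by brightness read 456.3 in vector and below the floor in all YAP arrays, with intensities of 24.3, 70.1 and 3.1, so it was at least 6.26-fold lower in each. The third was at least 5.22-fold lower, another at least 3.77-fold and another at least 2.5-fold, with vector intensities of 380.3, 275.1 and 182.5. All of these had their YAP arrays below the floor, so they place EHF below vector but give no order among the YAP forms. The remaining probe set read 92.9 in vector and 107.6 with YAP-W1W2, near the floor on both, and was below the floor in YAP-WT and YAP-S94A.

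ELF3, an ETS factor of epithelial differentiation, split the YAP arrays. It read 704.3 in vector, 185.7 with wild-type YAP, 703.4 with YAP-S94A and 307.7 with YAP-W1W2. Vector and YAP-S94A were level, YAP-WT was 3.79-fold lower than vector and YAP-W1W2 2.29-fold lower. All 3 ELF3 probe sets were at least 2-fold lower than vector in YAP-WT and in YAP-W1W2. They disagreed for YAP-S94A against vector, where the log2 differences ran from −1.07 to 0.13. The probe set at −1.07 read 314.5 in vector and 149.7 with YAP-S94A, and the third read 156.0 and 170.7. The sign of the brightest probe set's difference in YAP-S94A also turned with the scaling, at 0.03 after median centring and −0.11 after quantile normalization.

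ELF5, a factor of the luminal alveolar lineage, lies next to EHF on chromosome 11, with 0 protein-coding genes between them in the RefSeq table. Its brightest probe set read 75.1 in vector, just above the floor, and 29.7, 46.4 and 3.9 with wild-type YAP, YAP-S94A and YAP-W1W2. The other was below the floor on every array, with 71.1 in vector and 13.7 or less in the YAP arrays. Both probe sets were brightest in vector, at intensities too low to give a fold.

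The grainyhead factors differed from each other. GRHL3, which acts in skin barrier formation and has 1 probe set, read 645.2 in vector, 348.4 with wild-type YAP, 710.1 with YAP-S94A and 266.7 with YAP-W1W2. Vector and YAP-S94A were the high pair, and no neighbours in this order were 2-fold apart. GRHL3 was 2.42-fold lower than vector in YAP-W1W2, and its log2 difference was −0.89 with YAP-WT, past 2-fold only after quantile normalization, and 0.14 with YAP-S94A. GRHL1, a factor of desmosomal genes, read 210.7, 131.4, 186.7 and 237.9 in the order vector, wild type, S94A and W1W2. It did not reach 2-fold in any comparison with vector, and its 2 probe sets went opposite ways in YAP-W1W2, at 0.18 and −0.49.

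KLF4, a factor of growth arrest and terminal differentiation, was highest in vector. It read 3349.9 in vector, 1936.1 with wild-type YAP, 2348.2 with YAP-S94A and 1614.8 with YAP-W1W2. Every gap between neighbours in this order was under 2-fold. Against vector KLF4 was 2.07-fold lower with YAP-W1W2, by both of its probe sets, and its log2 difference was −0.79 with YAP-WT and −0.51 with YAP-S94A.

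KLF5, a factor of proliferating basal epithelium, had a different order. Its intensities were 4092.7 in vector, 3538.0 with YAP-W1W2, 2633.4 with YAP-WT and 2144.2 with YAP-S94A. No comparison with vector reached 2-fold. The log2 difference was closest to it in YAP-S94A, at −0.93 by 1 probe set and −0.92 by the other, and passed it only after quantile normalization, at −1.11.

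GATA3, the luminal factor, was the 1 member with a higher level in YAP-WT. It read 2679.1 in vector, 7108.3 with wild-type YAP, 1458.2 with YAP-S94A and 4722.6 with YAP-W1W2. YAP-WT was highest and YAP-S94A lowest, with neighbours in between under 2-fold apart. All 3 probe sets kept this order. GATA3 was 2.65-fold higher than vector in YAP-WT, with the other probe sets at 2.34-fold and 2.32-fold. In YAP-W1W2 the 3 log2 differences ran from 0.52 to 0.95 and in YAP-S94A from −1.36 to −0.88. The YAP-S94A difference passed 2-fold with quantile normalization and with the mean of the 3 probe sets, at −1.06 in both.

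By its brightest probe set SOX9 had the opposite order of arrays. It read 991.2 in vector, 357.9 with wild-type YAP, 1923.2 with YAP-S94A and 386.3 with YAP-W1W2. The YAP-WT and YAP-W1W2 arrays were low and 1.08-fold apart, vector lay between, and YAP-S94A was highest. SOX9 was 2.77-fold lower than vector in YAP-WT and 2.57-fold lower with YAP-W1W2, and the second probe set gave 2.56-fold and 2.72-fold. In YAP-S94A it was higher than vector by a log2 difference of 0.96, or 1.52 by the second probe set, which read 536.5 in vector and 1538.6 with YAP-S94A. The mean of both probe sets was past 2-fold, at 1.24. The second probe set exchanged the low pair, with 209.8 in YAP-WT and 197.1 in YAP-W1W2.

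**Figure D2:**
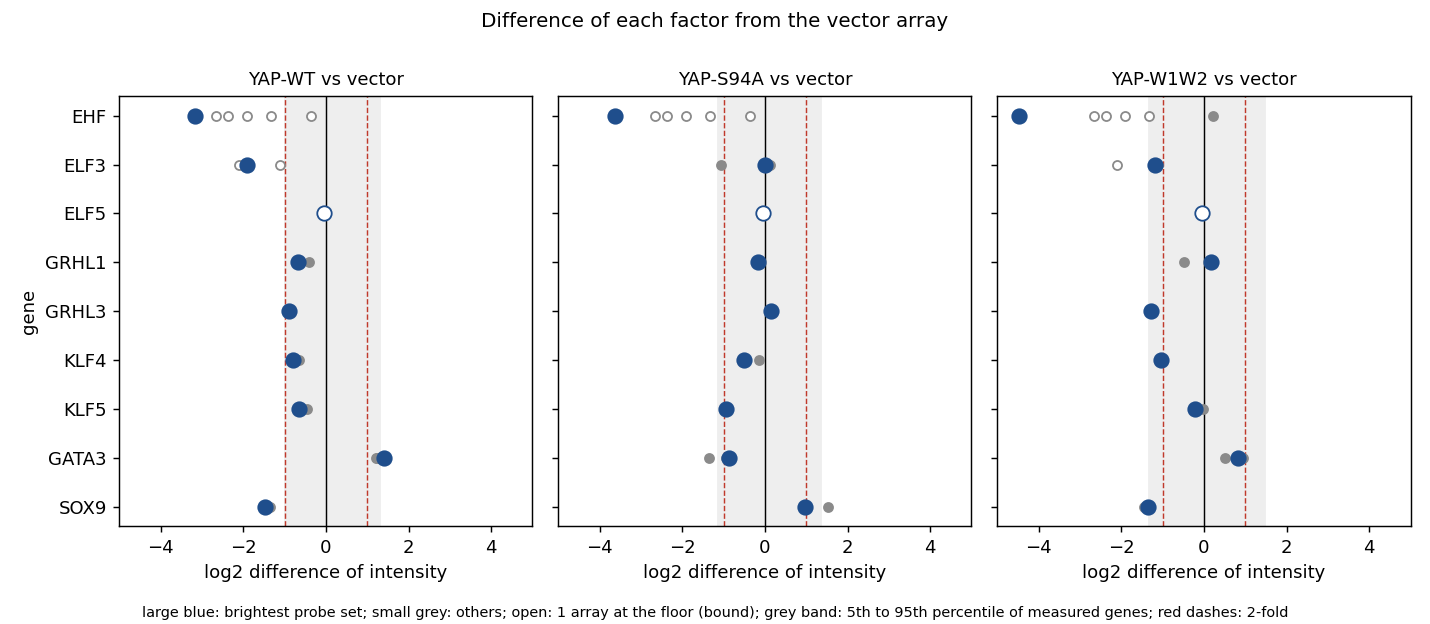
Log2 difference of intensity from vector (horizontal axis) for each factor (vertical axis) in the 3 YAP arrays, with the brightest probe set as a large blue point, others as small grey points, open points for bounds, and the 5th to 95th percentile of measured genes as a grey band. EHF lies at −3.17, −3.63 and −4.48, outside the band in each panel, and SOX9 lies at −1.47, 0.96 and −1.36.

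YAP-S94A was set directly against YAP-WT to see which factors differ with the TEAD-binding change, without use of the vector array. SOX9, ELF3 and GRHL3 passed 2-fold upwards in YAP-S94A and GATA3 downwards. These were 3 of 9 factors higher, beside 5.06% of measured genes, and 1 lower, beside 6.27%. By the brighter probe set SOX9 was 5.37-fold higher, and by the other 7.33-fold, and 38 of the 12759 measured genes had a higher log2 difference. ELF3 was 3.79-fold higher, with the other probe sets at least 2.05-fold and at least 2.34-fold higher. GRHL3 was 2.04-fold higher, barely past the threshold. GATA3 was 4.87-fold lower, or 6.0-fold and 4.48-fold by its other probe sets, and 98 measured genes had a lower log2 difference. EHF, at −0.46, KLF5 at −0.3, KLF4 at 0.28 and GRHL1 at 0.51 did not reach 2-fold. ELF5, which is among the 9 factors but not among the measured genes, was below the floor in every YAP array. It could therefore not be called in any comparison among YAP arrays.

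YAP-W1W2 was compared with YAP-WT to ask the same of the WW domains. Of the 9 factors 0 were at least 2-fold higher, beside 3.91% of measured genes, and 1 was lower, beside 5.59%. The factor that was lower was EHF, at 2.47-fold, and this rests on intensities of 235.9 and 95.6. With the floor at the 60th percentile the EHF log2 difference was −0.38, and as the mean over its probe sets it was −0.12, so this difference depends on 1 probe set near the floor. ELF3 stood at 0.73, GRHL1 at 0.86, KLF5 at 0.43, SOX9 at 0.11, KLF4 at −0.26, GRHL3 at −0.39 and GATA3 at −0.59.

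The 2 mutants were also compared with each other. SOX9 was 4.98-fold lower with YAP-W1W2 than in YAP-S94A, GRHL3 2.66-fold and ELF3 2.29-fold lower, and GATA3 was 3.24-fold higher. These were 3 of 9 factors lower, beside 4.45% of measured genes, and 1 higher, beside 4.98%. Every probe set of SOX9, ELF3, GRHL3 and GATA3 passed 2-fold in the same direction. The comparisons of the YAP arrays share arrays with each other, so the same 4 genes in 2 of them are not independent results.

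**Figure D3:**
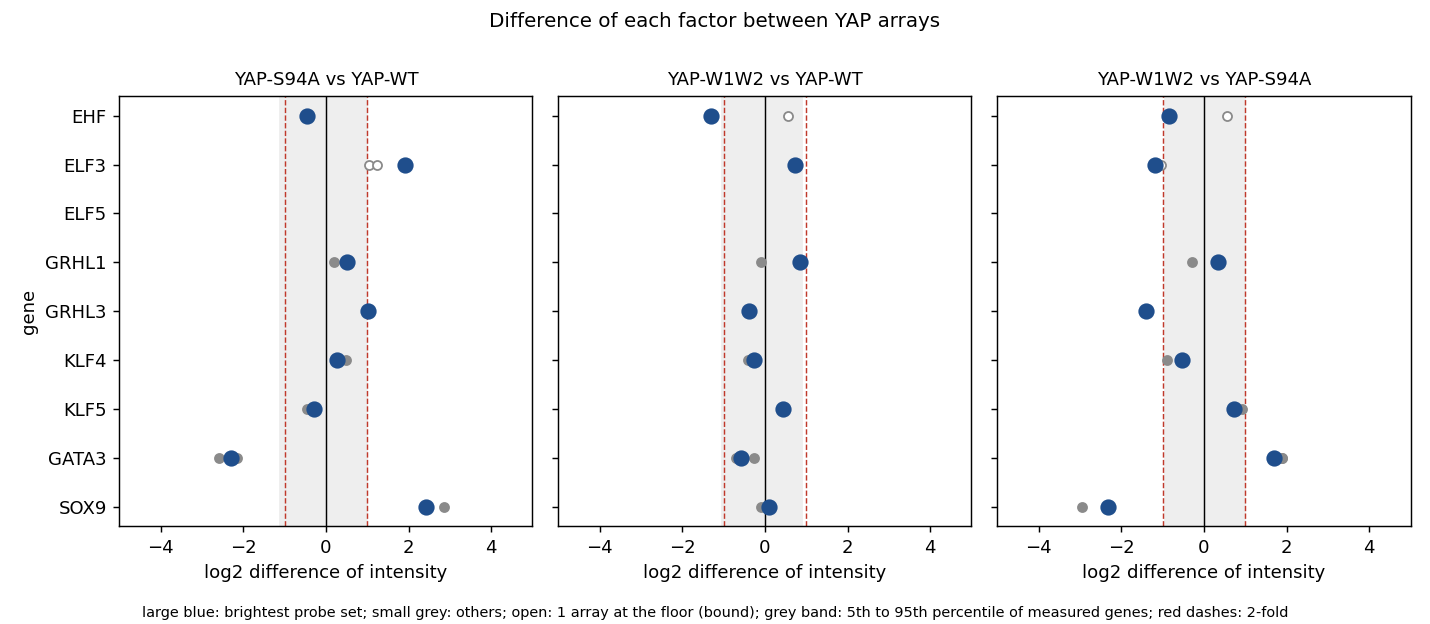
Log2 difference of intensity (horizontal axis) for each factor (vertical axis) in the 3 comparisons among YAP arrays, with points, band and dashed 2-fold lines as in the plot against vector. SOX9 at 2.43 and GATA3 at −2.29 lie on opposite sides in YAP-S94A against YAP-WT. In YAP-W1W2 against YAP-WT all plotted factors except EHF lie within 2-fold. ELF5, below the floor in every YAP array, has no point.

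Other factors of epithelial and mammary lineage were taken as a list. Of the 32 listed, 26 were measured. The shares of all measured genes given above for each comparison apply to this list and the next ones too. In YAP-WT 0 were higher than vector, beside 9.11% of all measured genes, and 3 lower, beside 4.95%. These 3 were the differentiation factor OVOL1 (2.29-fold) and the broadly expressed KLF3 (2.38-fold) and ELF1 (2.15-fold). The list's median log2 difference was −0.12. In YAP-S94A 3 were higher, beside 10.3%, and 2 lower, beside 6.53% (median 0.06). Among 26 measured factors these counts are near the shares of all genes. The luminal pioneer factor FOXA1 was 2.78-fold higher and MYB 2.15-fold, while the ETS factor ETS2 was 3.63-fold and BCL11A 2.16-fold lower. In YAP-W1W2 0 were higher, beside 11.4%, and 4 lower, beside 8.4% (median −0.15). ETS2 was 4.7-fold lower there, KLF3 2.28-fold, CEBPA 2.19-fold and ELF1 2.15-fold. Against YAP-WT, 3 were higher and 0 lower with YAP-S94A, beside 5.06% and 6.27% of measured genes. With YAP-W1W2 2 were higher and 1 lower than in YAP-WT, beside 3.91% and 5.59%. SOX15 was 2.47-fold higher than in YAP-WT with YAP-S94A and 2.21-fold with YAP-W1W2. FOXA1 was 2.49-fold higher than in YAP-WT with YAP-S94A, and ETS2 was 2.56-fold lower with YAP-W1W2.

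Genes of epithelial differentiation included junction, cornified envelope and luminal genes, several of them known to respond to grainyhead, ETS or KLF factors. Of 20 listed, 18 were measured. In YAP-WT 3 were higher, beside 9.11% of all measured genes, and 8 lower, beside 4.95% (median −0.82). The higher ones were the luminal genes KRT18 (3.03-fold), KRT8 (2.32-fold) and EPCAM (2.1-fold). The envelope precursors SPRR1B and SPRR1A were 6.84-fold and 5.6-fold lower and the splicing regulator ESRP1 3.61-fold lower. In YAP-S94A 5 were higher, beside 10.3%, and 1 lower, beside 6.53% (median 0.61), and the tight junction gene CLDN4 was 4.33-fold higher. In YAP-W1W2 4 were higher, beside 11.4%, and 4 lower, beside 8.4% (median −0.19), and SPRR1B was 27.9-fold lower.

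Set directly against YAP-WT, 12 differentiation genes were higher and 0 lower with YAP-S94A (median 1.23), beside 5.06% and 6.27% of measured genes. With YAP-W1W2 8 were higher and 1 lower (median 0.85), beside 3.91% and 5.59%. The medians of all measured genes were 0.01 and −0.04. This list was chosen with earlier results of these data known, so the shares beside its counts are not a test. ESRP1 was 5.31-fold higher with YAP-S94A and 5.03-fold with YAP-W1W2. SPRR1B was 4.08-fold lower with YAP-W1W2. Of the 9 factors 4 passed 2-fold with YAP-S94A and 1 with YAP-W1W2 in these comparisons, and whether the genes follow the factors was not tested.

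Genes of the basal epithelium, adhesion and keratin genes among them, formed the last list. Of 18 listed, 13 were measured. The desmoglein DSG3 was the 1 gene changed in YAP-WT, at 6.41-fold lower than vector, and it was 9.71-fold lower with YAP-W1W2. In YAP-S94A DSG3 stood at −0.63, and it was 4.14-fold higher than in YAP-WT. The hemidesmosomal linker DST was 2.5-fold lower than vector in YAP-S94A and 2.92-fold lower with YAP-W1W2, while the laminin chain LAMB3 was 2.8-fold and 2.42-fold higher. In all, 0 of the 13 genes were higher and 1 lower with YAP-WT, beside 9.11% and 4.95% of measured genes. The S94A mutant had 2 higher and 2 lower, beside 10.3% and 6.53%, and the W1W2 mutant 1 higher and 2 lower, beside 11.4% and 8.4%. The list medians were 0.09 with wild-type YAP, 0.02 with YAP-S94A and −0.17 with YAP-W1W2.

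**Figure D4:**
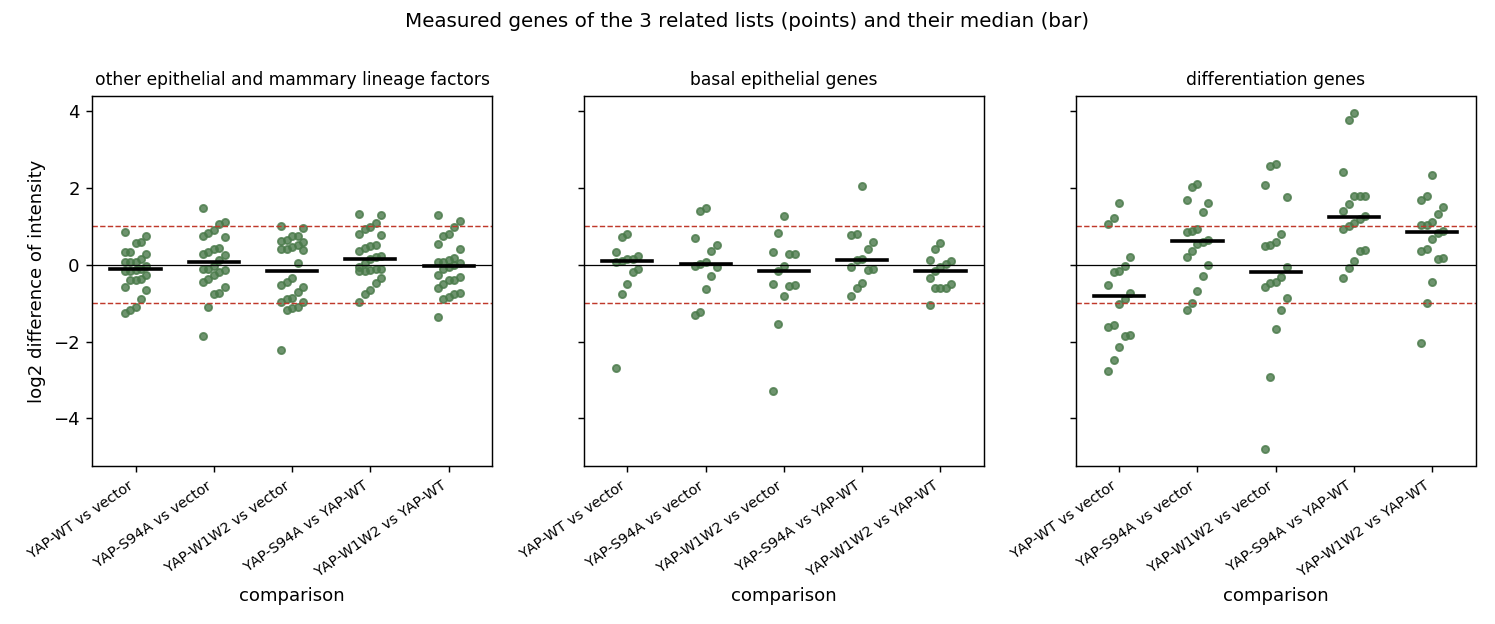
Log2 difference of intensity (vertical axis) for the measured genes of the 3 related lists in 5 comparisons (horizontal axis), 1 point per gene with the median as a bar and dashed lines at 2-fold. The medians of the lineage factors and of the basal genes lie between −0.17 and 0.16, and that of the differentiation genes runs from −0.82 with YAP-WT against vector to 1.23 with YAP-S94A against YAP-WT.

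The labelled cell type was checked on markers. All 6 basal mammary markers with a probe set were above the floor on every array, with summed intensities of 94868 to 117188. Of 9 luminal markers 6 to 8 were above the floor, and their sum was 17550 in vector, 39450 with wild-type YAP, 33996 with YAP-S94A and 61436 with YAP-W1W2. The luminal keratin KRT18 was 3.03-fold, 3.23-fold and 6.17-fold higher than vector in that order, and the adhesion gene EPCAM 2.1-fold, 4.02-fold and 5.95-fold. KRT8 and KRT18 made up most of the sum together with the mucin MUC1. The list did not move as 1: MUC1 stood at log2 differences of 0.75, −0.28 and −0.12, the hormone receptor gene PGR was above the floor only in vector, and PRLR was below it in YAP-WT and YAP-S94A. Fibroblast markers summed to 10121 in vector and to 5307, 1189 and 1511 in the YAP arrays, with 4 or 5 of 7 markers above the floor. The proteoglycan gene DCN alone read 9343.9 in vector and 3884.2, 288.0 and 248.3 in the YAP arrays. The other 6 markers summed to 777 in vector and to 1423, 901 and 1262, and among them COL1A1 was 2.45-fold higher than vector in YAP-WT and COL1A2 2.34-fold higher in YAP-W1W2. Immune markers summed to 856 to 1411, with 2 to 4 of 5 above the floor. Endothelial markers summed to 600 to 905, and CDH5, VWF and TEK were below the floor on every array. The part of these differences in those of the factors was not tested, and fewer cells of a type and less RNA per cell cannot be told apart in bulk RNA.

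The arrays were similar in overall brightness, with median intensities of 112.3 to 116.2. The spike-in controls for bioB were lower than in vector by log2 differences of −0.52 with wild-type YAP, −0.8 with YAP-S94A and −1.16 with YAP-W1W2. Those for Cre, another spike-in, differed by 0.02, −0.04 and −0.22, those for bioC by −0.34, −0.73 and −1.01 and those for bioD by −0.3, −0.63 and −0.75. The actin controls were higher by 0.43, 0.68 and 0.8 and the GAPDH controls by 0.22, 0.44 and 0.44. Their part in the differences of the factors was not tested. The 3 YAP1 probe sets differed from vector by −0.24 to 0.6, and whether they lie within the constructs is not known here.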

How the data were processed

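RNA of 4 MCF10A cultures, 1 per group, was extracted with Trizol, labelled with biotin and read on Affymetrix arrays, per the labels' protocols. Linear array intensities were deposited, made with GCOS per the submitters' processing notes. Its version is not given in the sources used here, nor is the scaling target. Of 54675 probe sets in the table, 62 were controls and were kept apart. The platform annotation gave 41091 of the others 1 symbol, 1801 several and 11721 none; only those with 1 were named.

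The 2% trimmed means of the arrays differed by a ratio of 1.098, within the 10% allowed, so values were used as deposited, floored at the 40th percentile and turned to log2 with Python 3.11.15 and pandas 2.3.3. The brightest probe set stood for each of 19775 genes, and 12759 of them reached a mean of 113.6, the median of all probe sets, and are called measured. Groups of 1 array allow no test, and the number of arrays limits the precision. The members and lists were chosen with earlier results of these data known. Every factor with a probe set is named. For each related list the plan was to name at most 4 genes per comparison, those with the largest differences above the floor. Not all of these are named. KRT18, KRT8 and EPCAM with YAP-WT and DSG3 with YAP-S94A, each against vector, were named outside this plan. They and the marker genes were named after their values were seen. The fold rule was run on simulated data with changes well past 2-fold in bright genes. That run does not cover calls near 2-fold or near the floor, nor the spread between cultures. Alternatives were 2 other scalings, 2 other floors and 2 other probe set choices. Upstream windows came from RefSeq.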

Additional observations from a re-analysis of the deposited data

How the results depend on the processing

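With 6 alternatives, 65 of 72 counts of changed factors stayed within 1.5 times, and 296 of 306 single log2 differences stayed on their side of 2-fold; 8 passed 2-fold only under an alternative and 2 fell under it. In YAP-S94A against vector the count of lower factors went from 1 to 3 with quantile normalization (EHF, GATA3 and KLF5), to 2 with the mean of all probe sets (EHF and GATA3) and to 2 among the 6 factors that have a probe set with neither an _s_at nor an _x_at ending (EHF and ELF3), and the count of higher factors went from 0 to 1 with the mean of all probe sets (SOX9). In YAP-W1W2 against vector the count of lower factors was 3 among those 6 factors, since KLF4 and SOX9 have suffixed probe sets only. In YAP-W1W2 against YAP-WT the count of lower factors was 0 with the floor at the 60th percentile and 0 with the mean of all probe sets. Quantile normalization moved the median of all measured genes in YAP-WT against vector from 0.14 to 0.02. Of 54 differences of the brightest probe sets, 1 changed sign with the scaling, that of ELF3 with YAP-S94A against vector. ELF5 passed 2-fold below vector only with the floor at the 20th percentile, at −1.34 with YAP-WT and −1.66 with YAP-W1W2. No paired analysis was possible because each group had 1 array. Low signal limits the reading of ELF5 on all arrays and of EHF on the YAP arrays.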

Other observations

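Genes with a profile close to that of a factor were looked up among the measured genes, by the Euclidean distance between log2 values centred on their mean over the 4 arrays. Closest to EHF were the aldehyde dehydrogenase ALDH3A1, at a distance of 0.674, and the aquaporin AQP3, at 0.737, both highest in vector and lowest in YAP-W1W2, with 75.1 and 65.6 there. Closest to ELF3 were PRODH2 (0.0883) and the receptor NOTCH3 (0.332), and closest to GRHL3 were SLC27A3 (0.176) and LRATD2 (0.181). For KLF4 these were PUS3 (0.0939) and FBXO31 (0.0982), for GATA3 SDK1 (0.208) and LINC00113 (0.258), and for SOX9 ZNF584 (0.129) and QTRT1 (0.252). AQP3, PRODH2, SDK1, ZNF584 and QTRT1 were below the floor on at least 1 array. Among the factors themselves, GRHL3 and KLF4 were each other's nearest, at 0.675, as were ELF3 and SOX9, at 0.873. The distances rest on 4 arrays and are given with no test.

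The antisense genes of SOX9 and GATA3 have 2 probe sets each, none of which is a probe set of the factor itself. Both for GATA3-AS1 were below the floor on every array, with 56.8 with YAP-S94A as the highest value. Of the SOX9-AS1 probe sets, 1 was below the floor on every array and the other read 20.3 in vector, 58.0 with wild-type YAP, 94 with YAP-S94A and 23.0 with YAP-W1W2, so it was above the floor only in YAP-S94A, the array where SOX9 was highest.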
